A study of Mus musculus with 2 samples.

Results

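The 10 genes described here belong to the circadian clock and its direct output: Dbp (ENSMUSG00000059824), Tef (ENSMUSG00000022389), Hlf (ENSMUSG00000003949), Nr1d1 (ENSMUSG00000020889), Nr1d2 (ENSMUSG00000021775), Per1 (ENSMUSG00000020893), Per2 (ENSMUSG00000055866), Per3 (ENSMUSG00000028957), Ciart (ENSMUSG00000038550) and Clock (ENSMUSG00000029238). They were taken by symbol from the gene tables of both libraries and make up 10 of 56980 genes. The genes were chosen by their model over control ratios of summed UMIs in these same 2 libraries, so every ratio below describes those libraries and is no finding about a list drawn up independently. With 1 library per group there is no replicate, no test was made, and every interval covers counting error only.

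The clock of mammalian cells is a loop of transcription and feedback. CLOCK, or its relative NPAS2, pairs with BMAL1 (listed in these files under its older symbol, Arntl) and activates genes through E-box elements, among them the Per and Cry genes, Nr1d1, Nr1d2, Dbp and Ciart. PER and CRY proteins then inhibit that pair. REV-ERBα and REV-ERBβ, encoded by Nr1d1 and Nr1d2, repress Arntl, Npas2, Clock, Cry1 and Nfil3 through RORE elements, so those genes peak at another time of day than the E-box genes. DBP, TEF and HLF are PAR bZIP factors that activate D-box genes, and NFIL3 competes for the same elements. In the intestine the clock is known to follow feeding time and to time nutrient transport, lipid uptake and renewal of the epithelium.

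Single cells of mouse small intestine were profiled by droplet sequencing (10x Genomics), in 1 control and 1 model library. In both, the gut was freed of mesentery and Peyer's patches and dissociated in 2 enzymatic and chelating steps (EDTA, followed by collagenase A with DNase I), according to the series' design text. The series title names simulated microgravity, radiation and CB001 compounds. The labels give neither the treatment, strain, sex and age of the animals, nor how many animals each library holds, nor the stretch of intestine. They also do not give the time of day of collection, so a difference of hour and a difference between control and model cannot be told apart in any value below.

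The kept cells numbered 7329 in the control library and 7913 in the model library, with medians of 3636 and 3761 UMIs per cell, where a UMI is the barcode of 1 captured transcript. Median mitochondrial shares were 10.8% and 5.38%, and the libraries shared 28 barcodes. Clustering without the clock genes gave 30 clusters, of which 27 took a name from their markers. A class was compared when both libraries gave it 100 cells or more, which held for 6: T-like, enterocyte-like, crypt stem or transit-amplifying-like, plasma-like, goblet-like and macrophage or monocyte-like cells, all rebuilt here from markers. The enterocyte-like class holds 4 clusters that the libraries fill unequally: cluster 1 (149 control and 527 model cells), cluster 2 (328 and 493), cluster 13 (830 and 110) and cluster 20 (504 and 150). Control cells of this class had a median of 4314 UMIs and model cells 6917.

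RefSeq promoter windows of mouse build GRCm38.p6, 300 bases long from 250 bases before to 50 bases after an annotated start, were at hand for 9 of the 10 genes, as 13 windows. Both strands were searched for the E-box CACGTG, the weaker E'-box CACGTT, the D-box as TTATGTAA or TTACGTAA, the RORE core TNGGTCA and the cyclic AMP response element TGACGTCA. These motifs do not overlap one another in the windows printed. The E-box was found in 4 windows of 3 genes (Per1, Tef and Ciart), against 7.15% of all 32851 windows. Ciart carried 3 copies in its single window. The D-box was found for Per3 alone, with 2 copies, against 1.06% of all windows, and the E'-box for Nr1d1, against 4.68%. Hlf had the cyclic AMP response element, which 1.79% of windows hold. A RORE core lay in 1 window each of Per3 and Tef, against 11.0% of all windows. No motif of the 5 was found for Dbp, Nr1d2 or Clock, which says only that these letters are not in these windows.

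A window of each of the 4 members whose ratios carry the account below is printed with one of Arntl, a partner gene that was lower in enterocyte-like cells. Tef and Arntl have a further window each that is not printed. Each is written 5′ to 3′ in the direction of transcription with the motifs in capitals, and positions count from 1 at its 5′ end. Dbp lies at chr7:45704997-45705296 on the plus strand and has no capitals. Tef, at chr15:81802423-81802722 on the plus strand, has its E-box at position 124. Nr1d1, at chr11:98775328-98775627 on the minus strand, has the E'-box at position 223. Per3, at chr4:151044616-151044915 on the minus strand, has D-boxes at positions 46 and 93 and a RORE core at 133. Arntl, at chr7:113207261-113207560 on the plus strand, has RORE cores at positions 5, 24 and 281. The further Tef window, at chr15:81811164-81811463, has an E-box at position 113 and a RORE core at 32. The further Arntl window, at chr7:113207215-113207514, overlaps the printed one and shows its RORE cores at 5 and 24 again, at positions 51 and 70.
Dbp: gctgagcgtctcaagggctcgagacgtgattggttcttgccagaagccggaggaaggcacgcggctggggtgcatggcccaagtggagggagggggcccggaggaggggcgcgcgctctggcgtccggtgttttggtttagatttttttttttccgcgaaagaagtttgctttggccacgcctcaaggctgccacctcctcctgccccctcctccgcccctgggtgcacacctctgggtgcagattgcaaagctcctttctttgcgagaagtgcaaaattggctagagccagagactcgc
Tef: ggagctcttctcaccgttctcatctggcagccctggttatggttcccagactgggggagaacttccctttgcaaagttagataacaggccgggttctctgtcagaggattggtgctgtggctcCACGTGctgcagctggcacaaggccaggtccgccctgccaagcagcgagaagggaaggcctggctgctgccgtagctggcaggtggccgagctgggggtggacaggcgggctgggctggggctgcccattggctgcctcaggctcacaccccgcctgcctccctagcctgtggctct
Nr1d1: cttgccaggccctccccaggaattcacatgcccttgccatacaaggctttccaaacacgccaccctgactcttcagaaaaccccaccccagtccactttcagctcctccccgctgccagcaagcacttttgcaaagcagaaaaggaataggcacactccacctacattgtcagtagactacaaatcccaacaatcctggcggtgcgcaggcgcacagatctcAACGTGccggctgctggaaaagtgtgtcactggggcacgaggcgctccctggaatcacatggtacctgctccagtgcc
Per3: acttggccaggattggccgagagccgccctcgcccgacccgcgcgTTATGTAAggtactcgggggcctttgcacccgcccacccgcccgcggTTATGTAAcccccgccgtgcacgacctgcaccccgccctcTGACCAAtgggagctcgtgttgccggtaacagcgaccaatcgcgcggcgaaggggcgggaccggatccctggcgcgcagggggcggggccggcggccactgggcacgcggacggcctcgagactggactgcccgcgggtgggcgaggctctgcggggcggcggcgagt
Arntl: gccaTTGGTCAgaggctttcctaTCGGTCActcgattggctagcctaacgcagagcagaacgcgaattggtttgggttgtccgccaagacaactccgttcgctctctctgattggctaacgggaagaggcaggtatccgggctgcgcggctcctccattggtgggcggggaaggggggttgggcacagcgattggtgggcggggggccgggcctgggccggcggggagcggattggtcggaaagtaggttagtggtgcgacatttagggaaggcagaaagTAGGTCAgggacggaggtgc

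UMIs were summed over the cells of a class in each library and scaled to CPM (UMIs per 1000000 UMIs of the class). A gene counted as measured in a class with at least 20 UMIs over both libraries, and as higher or lower in the model library at a ratio of at least 1.5 in either direction. Of 60 pairs of gene and class, 44 were measured, 16 were higher and 1 was lower. The interval of the ratio left out 1 in 13 of the 16 higher pairs and not in the lower pair. Over all kept cells, 2 of the 10 genes were higher, Dbp and Nr1d1, where 3.88% of all genes were, and none was lower, where 13.6% of all genes were. The median log2 ratio of the 10 genes over all kept cells was 0.38, and that of all genes tested was -0.04. The libraries differ in their mix of cells, and its part in the values over all kept cells was not tested. Unnamed cluster 3 held 1211 control and 29 model cells, B-like cells 4 and 277, and T-like cells 1358 and 2496.

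**Figure D1:**
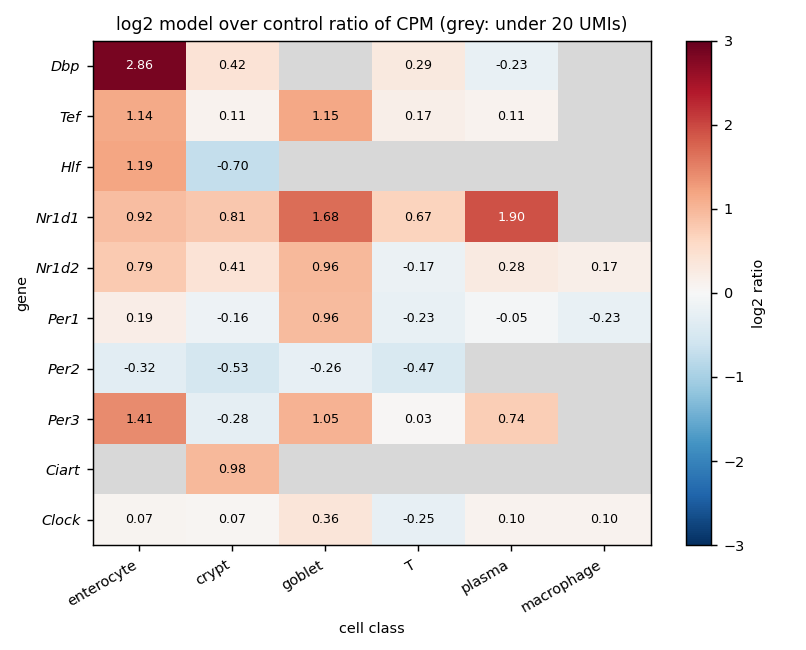
Log2 model over control ratio of CPM for each of the 10 genes (rows) in each of the 6 compared cell classes (columns), with red for higher in the model library, blue for lower and grey for pairs under 20 UMIs. The darkest cell is Dbp in enterocyte-like cells at 2.86, the Nr1d1 row is above 0 in its 5 measured classes, and the Per2 row is below 0 in its 4 measured classes.

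The genes divided by class. In enterocyte-like cells 6 of 9 measured members were higher (Dbp, Tef, Hlf, Nr1d1, Nr1d2 and Per3), beside 19.2% of all genes, and none was lower, beside 11.5%. In goblet-like cells 5 of 7 were higher (Tef, Nr1d1, Nr1d2, Per1 and Per3), beside 6.92%, and none was lower, beside 9.55%. In crypt stem or transit-amplifying-like cells 2 of 10 were higher, Nr1d1 and Ciart, beside 3.58%, and Hlf was lower, beside 6.7%. In plasma-like cells 2 of 7 were higher, Nr1d1 and Per3, beside 7.63%, and none was lower, beside 7.37%. In T-like cells 1 of 8 was higher, Nr1d1, beside 4.3%, and none was lower, beside 6.46%. That sum pools 6 clusters. In cluster 23, Per1 was at 0.529 (0.370 to 0.758) and Nr1d2 at 0.558 (0.306 to 1.03). Tef there was at 0.620 (0.266 to 1.49) and Clock at 1.14. Clock was at 0.537 (0.337 to 0.859) in cluster 9 and Per3 at 0.583 (0.249 to 1.33) in cluster 10. Nr1d1 went the other way, at 2.16 (0.991 to 5.20) in cluster 12 and 1.87 (0.936 to 3.98) in cluster 19. Of 3 members measured in macrophage or monocyte-like cells none was past the threshold in either direction, where 14.4% of all genes were higher and 9.23% lower. The median log2 ratio of the measured members was 0.92 in enterocyte-like cells, where all genes had 0.11, and 0.96 in goblet-like cells, where all genes had -0.06. It was 0.09 in crypt-like, 0.11 in plasma-like, 0.10 in macrophage or monocyte-like and -0.07 in T-like cells.

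**Figure D2:**
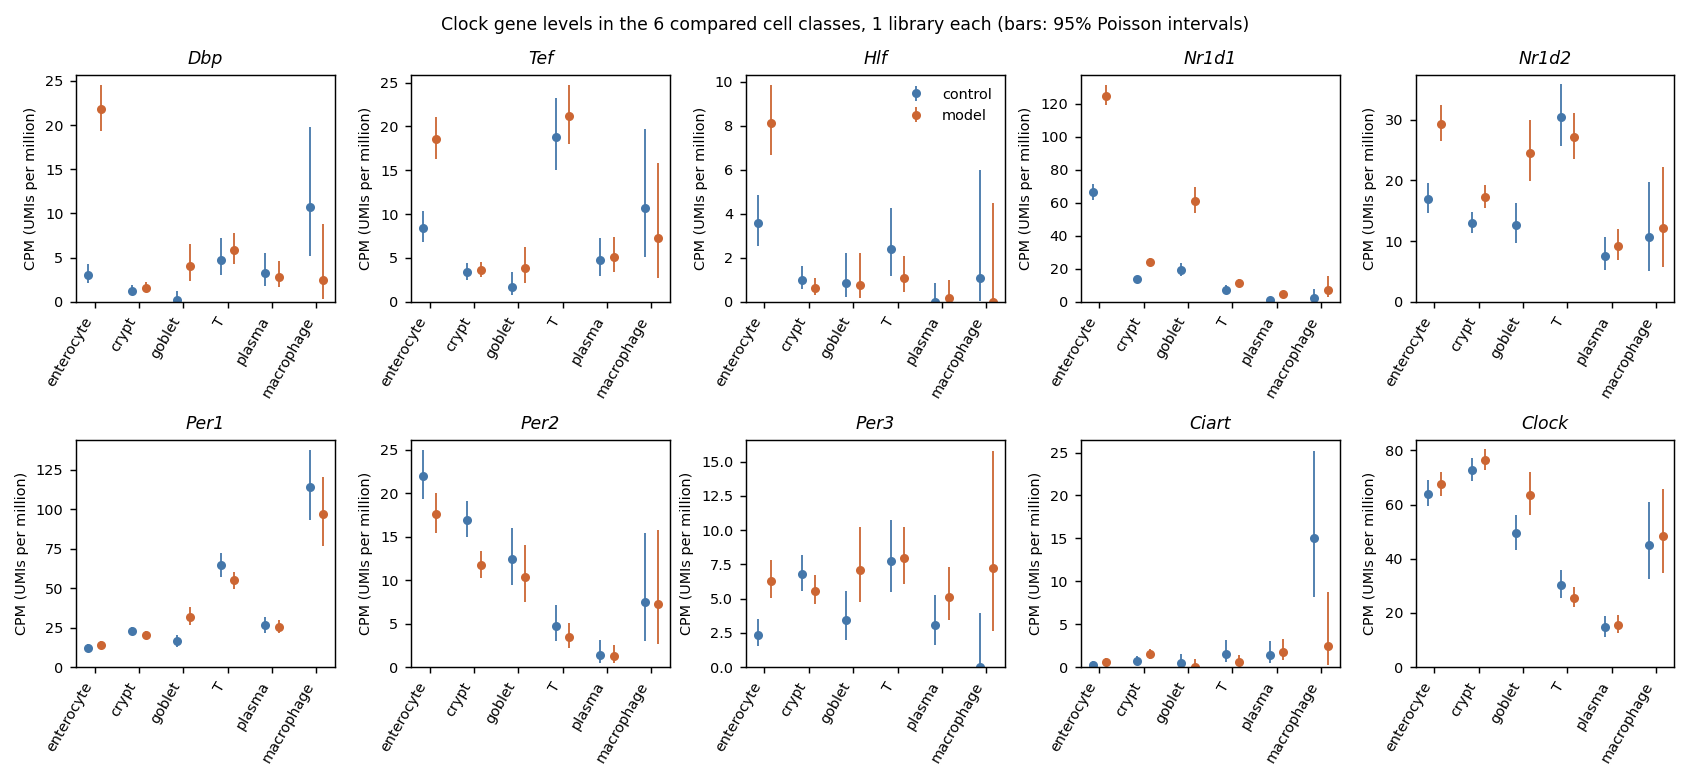
Level of each gene in CPM (vertical axis, a separate scale for each gene) in the 6 compared classes, blue for the control library and orange for the model library, with 95% Poisson intervals as bars. Orange lies far above blue for Dbp in enterocyte-like cells (21.8 against 3.01 CPM), while the levels of Clock differ by less than 1.5-fold in each class.

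Dbp, the PAR bZIP factor known for one of the widest daily swings among mammalian transcripts, had 33 UMIs in control and 287 UMIs in model enterocyte-like cells. That is 3.01 CPM against 21.8 CPM, a ratio of 7.25 with an interval from 5.04 to 10.7. The UMIs came from 33 control cells and 204 model cells, with no more than 5 in any cell. Of 11980 genes measured in this class, 10 had a ratio at least as high, Dbp included, which is 0.0835% of them. Elsewhere Dbp had 22 and 44 UMIs in T-like cells, a ratio of 1.22 (0.718 to 2.14), and 19 and 31 in crypt-like cells, 1.33 (0.731 to 2.50). Plasma-like cells gave 14 and 16 UMIs and 0.853 (0.390 to 1.89). These 3 ratios lie on both sides of 1 and each interval includes it. Goblet-like cells had 1 control and 16 model UMIs, and macrophage or monocyte-like cells 10 and 2. Among the 6 compared classes of the model library the level was highest in enterocyte-like cells.

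Tef, whose protein binds the same D-box elements as DBP, had 92 UMIs in control and 244 in model enterocyte-like cells, 8.39 against 18.6 CPM and a ratio of 2.21 (1.73 to 2.84). In goblet-like cells its 8 and 15 UMIs gave 2.22, with an interval from 0.884 to 6.05 that includes 1. T-like cells held Tef at 18.8 and 21.2 CPM, crypt-like cells at 3.35 and 3.60 and plasma-like cells at 4.72 and 5.11. Among the 5 classes with Tef measured, enterocyte-like cells stood next below T-like cells in both libraries. The intervals of these 2 classes overlap in the model library and not in the control library.

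Hlf, the remaining PAR bZIP factor, had 39 control and 107 model UMIs in enterocyte-like cells, 3.56 against 8.13 CPM, a ratio of 2.29 (1.57 to 3.39). Within the enterocyte-like clusters Hlf had 20 and 81 UMIs and 1.30 (0.790 to 2.24) in cluster 1, and 12 and 24 UMIs and 1.59 (0.766 to 3.49) in cluster 2, and both intervals include 1. Clusters 13 and 20 held too few UMIs. Crypt-like cells had 16 and 12 UMIs and a ratio of 0.614, with an interval from 0.265 to 1.38. This was the only pair past the threshold downwards, on few UMIs, and it returned inside at 0.833 in cells at or under 10% mitochondrial UMIs and at 0.668 with no mitochondrial limit. T-like cells gave 11 and 8 UMIs, goblet-like cells 4 and 3, plasma-like cells 0 and 1, and macrophage or monocyte-like cells 1 and 0, too few for a ratio.

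Nr1d1, which encodes the heme-binding repressor REV-ERBα, was higher in each of the 5 classes in which it was measured, though the crypt-like and T-like calls did not hold under every alternative. It had 726 UMIs in control and 1643 in model enterocyte-like cells, 66.2 against 125 CPM and a ratio of 1.89 (1.73 to 2.06). In goblet-like cells 89 and 241 UMIs gave 19.0 and 61.1 CPM, a ratio of 3.21 (2.51 to 4.14). In crypt-like cells 221 and 473 UMIs gave 13.7 and 24.0 CPM, a ratio of 1.75 (1.49 to 2.06). All 3 epithelial intervals exclude 1, and in these summed counts that of goblet-like cells lies above those of enterocyte-like and crypt-like cells. Plasma-like cells gave 5 and 25 UMIs, a ratio of 3.73 (1.40 to 12.5), and T-like cells 33 and 86, a ratio of 1.60 (1.06 to 2.46). Macrophage or monocyte-like cells held 2 and 6 UMIs. Among the compared classes the level was highest in enterocyte-like cells of both libraries, followed by goblet-like and crypt-like cells. The crypt-like ratio dropped under the threshold with cells thinned to 1000 UMIs (1.11), with the mean of the cells' CPM (1.35) and without the cells of highest doublet score (1.45). The goblet-like ratio moved to 1.797 and the plasma-like ratio to 2.13 with the mean of the cells' CPM, both still past the threshold. In that setting the enterocyte-like ratio was 2.51, above the goblet-like one, so the order of these classes depended on the scaling.

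The Nr1d1 values of plasma-like and T-like cells were set beside those of enterocyte RNA in the same cells. The 12 enterocyte markers in plasma-like cells reached medians of 1.95% (control) and 2.07% (model) of their enterocyte-like level, over ranges of 1.00 to 2.98% and 0.798 to 3.94%. Nr1d1 in plasma-like cells was at 1.78% and 3.53% of its enterocyte-like level, inside both ranges, and whether those cells express it was not tested. In T-like cells the markers had medians of 6.01% and 5.08%, with the highest at 8.29% and 9.40%, and Nr1d1 was at 10.8% and 9.11%. In the T-like clusters, cluster 12 had 9 control and 28 model Nr1d1 UMIs and cluster 19 had 12 and 32, while cluster 10, the largest, had 6 and 7. With each library clustered alone the T-like ratio turned to 0.858, and it dropped to 1.34 at a mitochondrial limit of 10%, to 1.29 without the cells of highest doublet score and to 1.04 with thinned cells. The part of free RNA in the ratios of these classes was not tested.

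Nr1d2, the gene of REV-ERBβ, had 186 control and 386 model UMIs in enterocyte-like cells, 17.0 against 29.3 CPM and a ratio of 1.73 (1.45 to 2.07). Goblet-like cells had 59 and 97 UMIs and a ratio of 1.95 (1.40 to 2.74). In crypt-like cells the ratio of 209 and 340 UMIs was 1.33 (1.12 to 1.59), under the threshold although its interval excludes 1. Plasma-like cells had 1.21 (0.766 to 1.95), macrophage or monocyte-like cells 1.13 (0.421 to 3.02) and T-like cells 0.890 (0.715 to 1.11). T-like cells held the highest control level of the 6 classes at 30.5 CPM, against 27.1 CPM in the model library.

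The Period genes, which encode the repressor partners of the CRY proteins, did not share one pattern. Per1, which also answers acutely to glucocorticoids and cyclic AMP, had 77 control and 126 model UMIs in goblet-like cells, 16.5 against 32.0 CPM and a ratio of 1.94 (1.45 to 2.61). Its ratios in the other 5 classes ran from 0.851 in macrophage or monocyte-like cells and 0.852 in T-like cells (298 and 415 UMIs) to 1.14 in enterocyte-like cells (135 and 185 UMIs). Its level was highest in macrophage or monocyte-like cells, at 114 and 96.9 CPM, and next in T-like cells, at 64.4 and 54.9 CPM, with no overlap between the intervals of these classes within a library.

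Per2, a limiting repressor of the loop, had summed ratios under 1 in its 4 measured classes: 0.692 in crypt-like cells (273 and 231 UMIs, interval 0.578 to 0.828), 0.723 in T-like cells (22 and 26 UMIs, 0.394 to 1.34), 0.802 in enterocyte-like cells (241 and 232 UMIs, 0.667 to 0.965) and 0.838 in goblet-like cells (58 and 41 UMIs, 0.548 to 1.27). None passed the threshold, and the crypt-like and enterocyte-like intervals exclude 1. The enterocyte-like sign was not kept within clusters, where Per2 was at 1.00, 1.05, 1.00 and 0.790 in clusters 1, 2, 13 and 20, at 0.960 with equal weight, and at 1.17 (0.773 to 1.81) in the unnamed cluster 7. With the mean of the cells' CPM the crypt-like ratio was 0.625 and the T-like ratio 0.518, both past the threshold. Plasma-like cells had 6 and 7 UMIs and macrophage or monocyte-like cells 7 and 6.

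Per3, which is not needed for the loop to run, followed Tef and Dbp in enterocyte-like cells, where 26 control and 83 model UMIs gave 2.37 against 6.31 CPM and a ratio of 2.66 (1.69 to 4.31). Goblet-like cells had 16 and 28 UMIs and 2.07 (1.08 to 4.10), and plasma-like cells 13 and 29 UMIs and 1.67 (0.839 to 3.49), which dropped to 1.10 with the mean of the cells' CPM and to 1.43 without the cells of highest doublet score. T-like and crypt-like cells, with 36 and 60 and with 109 and 110 UMIs, had ratios of 1.02 (0.664 to 1.59) and 0.826 (0.628 to 1.09). Macrophage or monocyte-like cells had 0 control and 6 model UMIs.

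Ciart, which encodes CHRONO, a repressor that binds the BMAL1 complex, was sparse. Crypt-like cells, its only measured class, had 12 and 29 UMIs and a ratio of 1.98, with an interval from 0.978 to 4.25. That ratio was 1.28 at a mitochondrial limit of 10% and 4.60 with the mean of the cells' CPM. The remaining classes had from 2 and 0 UMIs in goblet-like cells to 14 and 2 in macrophage or monocyte-like cells. Clock, which encodes the activating partner of BMAL1, was measured in all 6 classes and past the threshold in none. Its ratios ran from 0.842 (0.674 to 1.05) in T-like cells, with 141 and 194 UMIs, to 1.29 (1.07 to 1.55) in goblet-like cells, with 231 and 251. Enterocyte-like cells had 702 and 887 UMIs, 64.0 against 67.4 CPM, and a ratio of 1.05 (0.953 to 1.16). Crypt-like cells held it at the highest level of the 6 classes, 72.9 and 76.5 CPM.

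**Figure D3:**
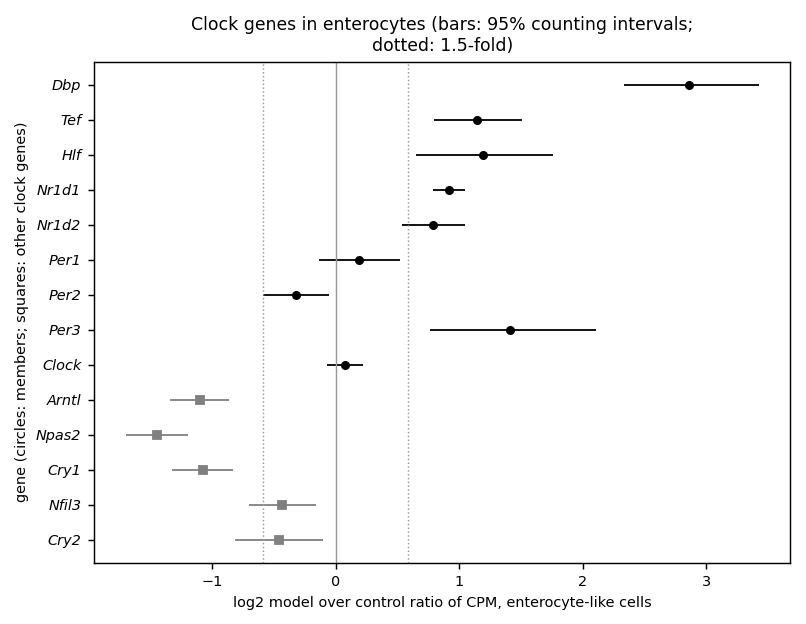
Log2 model over control ratio of CPM (horizontal axis) in enterocyte-like cells for 9 measured members (black circles) and 5 further clock genes (grey squares), with 95% counting intervals as bars and dotted lines at 1.5-fold. Dbp stands apart at 2.86, Per1, Per2 and Clock lie between the dotted lines, and Arntl, Npas2 and Cry1 lie to the left of them.

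The other genes of the loop were read from lists set down for this work, with earlier results of these data known. Of 15 core clock partners 11 were measured in enterocyte-like cells. None was higher, beside 19.2% of all genes, and 4 were lower, beside 11.5%. The median log2 ratio of the 11 was -0.50, beside 0.11 for all genes. Arntl, the gene of BMAL1, had 415 control and 232 model UMIs, 37.9 against 17.6 CPM and a ratio of 0.466 (0.395 to 0.548). Npas2, the alternative partner of BMAL1, had 424 and 187 UMIs and 0.368 (0.308 to 0.438). Cry1, a repressor, had 379 and 216 UMIs and 0.475 (0.400 to 0.563). Fbxl21, a ligase subunit that acts on CRY proteins, had 28 and 10 UMIs and 0.298 (0.129 to 0.631). These 4 were lower in the summed enterocyte-like cells. The Cry1 call rests on the mix of clusters, as it was lower in 1 of 4 clusters and at 0.746 with equal weight, inside the threshold, and Npas2 was at 0.637 with equal weight. The counts of core partners higher and lower were 1 and 0 of 13 in crypt-like cells, 0 and 1 of 11 in goblet-like, 0 and 1 of 12 in T-like, 2 and 1 of 12 in plasma-like and 1 and 2 of 8 in macrophage or monocyte-like cells. Of all genes, 3.58% and 6.7% were higher and lower in crypt-like cells, 6.92% and 9.55% in goblet-like and 4.3% and 6.46% in T-like cells. Plasma-like cells had 7.63% and 7.37%, and macrophage or monocyte-like cells 14.4% and 9.23%. The same shares stand beside the counts of the lists that follow.

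A list of 5 genes known to peak away from the E-box genes (Arntl, Npas2, Clock, Nfil3 and Cry1) had 3 lower genes and none higher in enterocyte-like cells, with a median log2 ratio of -1.07. Arntl, Npas2, Nfil3 and Cry1 also stand in the list of core partners, and Clock is a member. The 3 lower genes, Arntl, Npas2 and Cry1, were already counted as lower among the core partners and add no separate result. Nfil3, the rival of the PAR bZIP factors, had a ratio of 0.742 in enterocyte-like cells and Clock 1.05. With the enterocyte-like clusters at equal weight Nfil3 was at 0.577, past the threshold. Of these 5 genes 1 of 5 was lower in T-like cells, Npas2 with 17 and 17 UMIs and a ratio of 0.612 (0.294 to 1.28). None of the list was past the threshold in either direction in crypt-like, goblet-like, plasma-like or macrophage or monocyte-like cells.

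The list of known clock-controlled genes shares Hlf with the members. Of 10 measured in enterocyte-like cells 2 were higher, beside 19.2% of all genes. They were Hlf and Tfrc (transferrin receptor, 210 and 467 UMIs, ratio 1.85 with 1.57 to 2.19). None was lower, beside 11.5%, and the median log2 ratio was 0.10 beside 0.11 for all genes. In goblet-like cells none of 10 was higher and 2 were lower, the cell cycle kinase gene Wee1 (0.627, 0.444 to 0.877) and Lonrf3 (0.412, 0.159 to 0.955). Crypt-like cells had 1 of 12 lower, which was Hlf. T-like cells had 1 of 10 higher, plasma-like cells none of 9 in either direction, and macrophage or monocyte-like cells 1 of 6 higher (Tfrc, 1.78) and 2 lower (Klf10, 0.499, and Klf11, 0.501), where 14.4% of all genes were higher and 9.23% lower.

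Glucocorticoid-responsive genes, a list that shares Per1 with the members, had 3 of 9 higher and 2 lower in goblet-like cells. Those higher were the kinase gene Sgk1 (65 and 155 UMIs, 2.83 with 2.10 to 3.84), Per1, and Fkbp5 (1.55, 1.20 to 2.01), a co-chaperone of the glucocorticoid receptor. Those lower were Ddit4 (0.633) and the metallothionein gene Mt2 (0.582). In enterocyte-like cells 1 of 10 was higher, Zbtb16 (2.33), and Mt2 was lower (0.363). In crypt-like cells Zbtb16 (1.94) and Fkbp5 (1.51) were higher and none of the 10 was lower. T-like cells had 1 of 10 higher, plasma-like cells 1 of 9 higher and 1 lower, and macrophage or monocyte-like cells 2 of 9 higher and 1 lower. Of 12 immediate early and dissociation genes, none was past the threshold in crypt-like or goblet-like cells, and in enterocyte-like cells Hspa1a alone was, at 1.56. Macrophage or monocyte-like cells had 2 of 12 lower (Egr1, 0.605, and Hspa1b, 0.572) and a median log2 ratio of -0.45, and T-like and plasma-like cells had Hspa1b lower (0.583 and 0.538). The part of stress hormones or dissociation in the members' ratios was not tested.

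**Figure D4:**
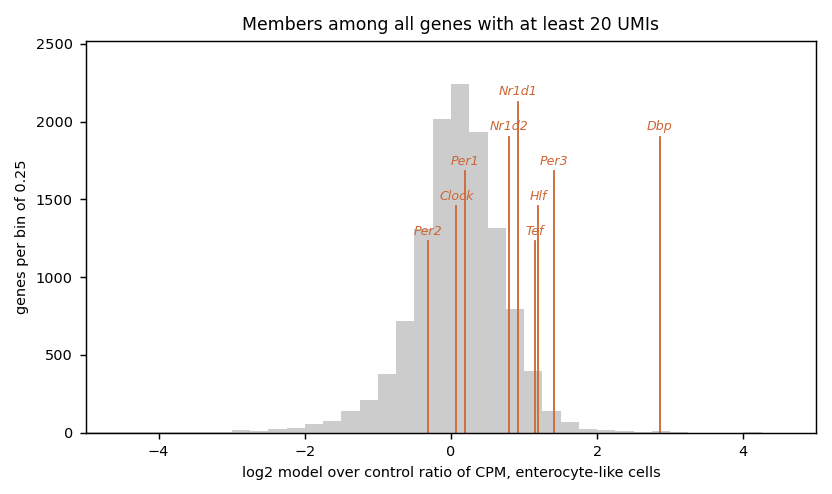
Number of genes (vertical axis) per bin of log2 model over control ratio (horizontal axis, bins of 0.25) among the 11980 genes measured in enterocyte-like cells, with 9 members as lines whose height has no meaning. Dbp lies in the far right tail at 2.86, and Clock, Per1 and Per2 lie in the main body of genes.

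Because the libraries fill the enterocyte-like clusters unequally, the ratios were also taken within each cluster, an alternative added after seeing the data. Dbp had 8 control and 173 model UMIs in cluster 1 (6.95, 3.45 to 16.4) and 13 and 101 in cluster 2 (6.18, 3.46 to 12.01). Clusters 13 and 20 had only 8 and 7 and 4 and 6 Dbp UMIs. Tef was at 2.49, 2.20 and 3.76 in clusters 1, 2 and 13, with intervals that exclude 1. In cluster 1, 3 members were past the threshold upwards (Dbp, Tef and Per3), beside 7.4% of all genes there. Cluster 2 had 6 (Dbp, Tef, Hlf, Nr1d1, Per1 and Per3), beside 8.65%. Cluster 13 had 4 (Tef, Nr1d1, Nr1d2 and Per1), beside 13.6%, and cluster 20 had 3 (Nr1d1, Nr1d2 and Per1), beside 14.9%. No member was past it downwards in these clusters, where 6.14%, 5.48%, 21.3% and 14.5% of all genes were.

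The REV-ERB genes varied most among these clusters. Nr1d1 had ratios of 1.29 (1.12 to 1.48), 1.82 (1.55 to 2.13), 2.59 (1.91 to 3.46) and 4.84 (3.33 to 7.13) in clusters 1, 2, 13 and 20. Its control levels were 86.0, 92.7, 58.4 and 21.9 CPM and its model levels 111, 168, 151 and 106 CPM, so the control levels spread more widely than the model levels. Nr1d2 had 1.16, 1.29, 4.63 and 5.04 in the same order, past the threshold in clusters 13 and 20 alone. Per2 lay between 0.790 and 1.05 and Clock between 0.864 and 1.03 over the 4 clusters.

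Arntl was lower in all 4 clusters, at 0.463, 0.427, 0.390 and 0.657, and the interval of cluster 20 alone (0.363 to 1.13) includes 1. Npas2 was under 1 in 4 of 4 clusters and past the threshold in 3, Nfil3 likewise in 3 and Cry1 in 1. With the 4 clusters given equal weight, the ratio was 6.34 for Dbp, 2.91 for Tef, 1.54 for Hlf, 2.07 for Nr1d1, 2.19 for Nr1d2, 2.37 for Per3, 0.960 for Per2, 0.954 for Clock and 0.479 for Arntl. Per1 moved from 1.14 to 1.62 and Nfil3 from 0.742 to 0.577, both past the threshold. Their calls, like that of Cry1, depend on how the clusters are weighted.

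**Figure D5:**
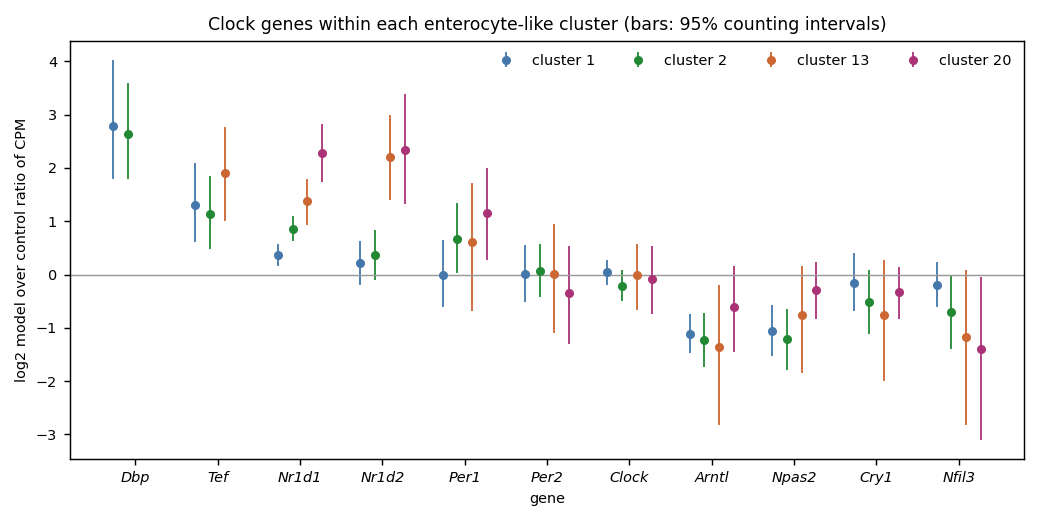
Log2 model over control ratio of CPM (vertical axis) for 11 clock genes in each of the 4 enterocyte-like clusters (colours), with 95% counting intervals as bars; pairs under 20 UMIs are not drawn, which leaves out Dbp in clusters 13 and 20 and Tef in cluster 20. Dbp and Tef are above 0 and Arntl below 0 in every cluster drawn, Clock and Per2 stay near 0, and Nr1d1 and Nr1d2 spread between clusters.

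Median mitochondrial shares of enterocyte-like cells were 18.0% (control) and 15.6% (model). In the 181 control and 402 model cells of the class at or under 10%, Dbp had a ratio of 6.79, Tef 1.84, Hlf 1.63, Nr1d1 1.59, Nr1d2 1.26, Per3 1.15, Per2 0.973 and Clock 0.979. Per3 and Nr1d2 thereby dropped under the threshold while Dbp, Tef, Hlf and Nr1d1 stayed past it. Median mitochondrial shares were 9.27% and 8.24% in cluster 1 and from 17.7% to 22.0% in clusters 2, 13 and 20. The limit therefore also changes the mix of clusters, and the part of that mix in these ratios was not tested. With each cell thinned to 1000 UMIs the Dbp ratio was 3.33, on 11 control and 25 model cells with a UMI. The same thinning moved Dbp in T-like cells from 1.22 to 5.13, on 2 control and 17 model cells with a UMI, so the thinned values do not order these classes as the full counts do.

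A neighbouring population outside the compared classes gave a further view of the epithelium. Cluster 7 (205 control and 424 model cells, led by Gsdmc4 and Car4) stayed unnamed, as it passed too few markers of any class. There 5 of 9 measured members were higher, beside 4.53% of all genes, and none was lower, beside 6.65%. Dbp had 4 and 25 UMIs (3.23, 1.12 to 12.8), Tef 8 and 37 (2.39, 1.10 to 5.95), Hlf 3 and 25 (4.31, 1.32 to 22.3), Nr1d1 151 and 478 (1.64, 1.36 to 1.98) and Per3 14 and 42 (1.55, 0.831 to 3.08). Arntl had a ratio of 0.813 (0.687 to 0.963) and Clock 1.10 (0.964 to 1.27). Npas2 was at 0.637 (0.435 to 0.936) and Cry2 at 0.635 (0.348 to 1.17), both past the threshold downwards. Cry1 was at 0.732 (0.527 to 1.02) and Nfil3 at 0.996 (0.821 to 1.21). The upward set was that of enterocyte-like cells without Nr1d2, which had 1.26.

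Genes with the most similar pattern of ratios over the classes could not be named by the rule set down for them, because none of Dbp, Nr1d1 and Per2 was measured in all 6 classes. Over the classes in which each was measured, an alternative added after seeing the data, Dbp lay nearest to Mtap and Dtwd1 among 8471 genes in 4 classes, at root mean square distances of 0.35 and 0.37 on the log2 scale. Mtap had ratios of 7.29 in enterocyte-like and 1.06 in T-like cells. Nr1d1 lay nearest to Prxl2a (0.30) and Leap2 (0.35) among 8309 genes in 5 classes, and Per2 to Lrrc8d (0.08) and mt-Nd6 (0.08) among 9343 genes in 4 classes.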

How the data were processed

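The deposited matrices hold whole-number UMI counts per gene and barcode, not normalised, and per the file headers the authors made them with Cell Ranger 7.0.1. Cell Ranger 4.0 and build GRCm39 stand in the submitters' processing notes. Neither source gives the annotation or says whether intronic reads were counted. The libraries held 61370270 (control) and 76701215 (model) UMIs over 10259 and 11468 barcodes.

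Cells needed 500 UMIs and 200 genes or more, and a mitochondrial share no higher than 25%. Scrublet called 0 control and 5 model cells doublets, too few to have worked, and none were removed. Both libraries were clustered together in scanpy 1.11.5 (2000 variable genes without the clock lists, 30 components, 15 neighbours, Leiden resolution 1). Naming a cluster took 3 or more markers, each 2-fold above the remaining cells and present in 10% of the cluster.

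UMIs were summed per library and class, with exact binomial 95% intervals on ratios. UMIs mark molecules, but intervals cover counting error only and no replicate spread. The ratio step was tested on simulated data. All 10 members were named in each compared class with at least 20 UMIs. The rule also allowed list genes past 1.5-fold to be named, up to 6 per class and list, and some of these are given only as counts. The members and lists were chosen with earlier results of these data known. One gene of the core clock list is not reported here. Likeness was ranked over 5 nearest genes. Promoter windows came from RefSeq GRCm38.p6, matched by symbol, and serve only for sequence. Alternatives changed the mitochondrial, UMI and gene limits, the clustering, the scaling, the doublet treatment and the fold. The 3 unnamed clusters were not compared as classes.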

Additional observations from a re-analysis of the deposited data

Results flagged for a closer look

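Hlf stood on opposite sides of 1 in 2 epithelial classes. Its model over control ratio was 2.29 in enterocyte-like cells (39 control and 107 model UMIs) and 0.614 in crypt stem or transit-amplifying-like cells (16 and 12 UMIs), and both passed the 1.5-fold threshold. With 1 library per group the difference between the classes was not tested, and the crypt-like interval (0.265 to 1.38) includes 1. The enterocyte-like ratio was 1.30 (0.790 to 2.24) in cluster 1, 1.59 (0.766 to 3.49) in cluster 2 and 1.54 with the clusters at equal weight.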

How the results depend on the processing

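The members counted as higher in the 6 classes, 16 in the report, numbered 6 of 32 measured pairs at a mitochondrial limit of 10%, 7 of 24 with cells thinned to 1000 UMIs and 8 at a fold of 2. At the 10% limit no enterocyte-like class formed. Of the 16 pairs, 13 had an interval without 1. The members counted as lower, 1 in the report, numbered 2 at the 10% limit, 3 at a minimum of 1000 UMIs per cell, 0 at Leiden resolution 2, 2 without the 8% highest Scrublet scores, 5 with the mean of the cells' CPM, 2 with only the largest cluster of a class, 0 at a gene minimum of 50 UMIs, 7 at a minimum of 1 UMI, 0 at a fold of 2, and 0 where the interval had to exclude 1. The median log2 ratio over all kept cells, 0.38 in the report, was 0.19 at the 10% limit, 0.34 without the highest Scrublet scores, 0.29 with thinned cells, 0.42 when centred on all genes and 0.33 with the mean of the cells' CPM. Nr1d1 in T-like cells turned from 1.60 to 0.858 with each library clustered alone. Of 645 alternative ratios of single genes, 583 lay within the counting interval of the reported ratio, 36 of these on the other side of 1. A further 61 lay outside it, 17 of them on the other side of 1, and 1 called ratio, the T-like Nr1d1 ratio above, reversed. The cause of these shifts was not tested. Leaving out a replicate could not be tried with 1 library per group. No paired analysis was possible because each group has 1 library, so the groups share fewer than 2 replicate numbers.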

Other observations

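Members also had counts in classes with under 100 cells in a library, which are given as values. Nr1d1 had 9 control and 30 model UMIs in endothelial-like cells (68 and 72 cells), a ratio of 5.90 (2.73 to 14.1), and 12 and 15 UMIs in fibroblast-like cells (113 and 53 cells), 3.70 (1.61 to 8.65). In NK or innate lymphoid-like cells (37 and 63 cells) it had 12 and 32 UMIs, 98.1 against 203 CPM, a ratio of 2.07 (1.04 to 4.42). Those CPM values lie above the enterocyte-like levels of 66.2 and 125 CPM. Tuft-like cells had 5 and 16 UMIs (3.27, 1.15 to 11.4), smooth muscle or pericyte-like cells 16 and 33 (1.97, 1.05 to 3.83) and enteroendocrine-like cells 33 and 62 (1.37, 0.885 to 2.16).

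Dbp in enteroendocrine-like cells (84 control and 161 model cells) had 2 and 18 UMIs, of which 1 model cell held 7. Nr1d2 in the same cells had 18 and 48 UMIs and a ratio of 1.95 (1.11 to 3.56). Per1 in endothelial-like cells had 15 and 22 UMIs and a ratio of 2.60 (1.29 to 5.38), and Per1 in smooth muscle or pericyte-like cells 28 and 19 UMIs and 0.648 (0.342 to 1.20).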
